A study of Mus musculus with 4 samples.

Results

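Mt1 and Mt2, the genes of the 2 widely expressed mouse metallothioneins, were followed through single CD8 T cells of melanoma-bearing mice. They are 2 of the 12763 genes in the deposited table, were chosen by name with earlier results of these data known, and were read in the 6965 cells of 4 libraries. In the tumour libraries they were also read by whether a cell held a value of 4 status genes, namely Pdcd1, Havcr2, Tnfrsf9 and Hspa1a. Because the levels and these splits chose the genes, their values are a description and carry no test.

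The mice were C57BL/6 recipients, lethally irradiated and rebuilt with a mixture of marrow from Cd4creCd137fl/flROSA26tomato and Cd137fl/flROSA26tomato donors. All of them carried a subcutaneous tumour of B16K1, a line of the mouse B16 melanoma, for 21 days before sampling. The groups were CD137-minus and CD137-plus CD8 T cells of the tumour, and CD137-minus and CD137-plus CD8 T cells of the spleen. CD137, encoded by Tnfrsf9, is a costimulatory receptor that T cells put on their surface after activation. In CD137-minus cells a Cre driven by the Cd4 promoter, which acts in developing T cells, had deleted the gene, while CD137-plus cells came from donors with the same floxed alleles and no Cre. Loss of CD137, the presence of Cre and the donor marrow therefore cannot be told apart. Cells were bead-isolated, sorted by the tomato reporter, hashtagged by mouse and pooled from 7 mice into 1 library per group. The table names no mouse, so there was no replicate and a difference between libraries has no replicate check. The labels disagree on which reporter sort holds which genotype, and the groups were taken from the stated CD137 status alone. Tnfrsf9 itself went with that status, with 57.5 CPM in the CD137-minus tumour library against 421 CPM in the CD137-plus one, and 2.34 CPM against 16.2 CPM in the spleen. A 5′ tag may lie outside the deleted part of the gene.

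Metallothioneins are small proteins rich in cysteine that bind zinc and copper. Their genes are induced when free zinc rises, through the zinc-sensing transcription factor MTF-1, which binds short metal response elements upstream of the gene, and also by glucocorticoids and oxidative stress. In mouse tumours, high metallothionein expression has been described in dysfunctional CD8 T cells, a state that follows long antigen exposure and carries inhibitory receptors such as PD-1 (Pdcd1) and TIM-3 (Havcr2).

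Both genes lie on chromosome 8 of mm10 (GRCm38), on the plus strand, within the cluster that also holds Mt3 and Mt4. In the GENCODE M21 annotation Mt2 (ENSMUSG00000031762.7) spans chr8:94172664-94173568 with 2 transcripts of 3 exons, and Mt1 (ENSMUSG00000031765.8) spans chr8:94179082-94180327 with 3 transcripts of 1 to 3 exons. They lie 5513 bases apart. An unnamed antisense gene model of that annotation overlaps Mt2. Whether counting used strand is not stated, so it is not known whether reads of Mt2 and of that model were kept apart. The stretch before each start is shown because metal response elements, the sites of their known regulator MTF-1, lie there. Lower case is RefSeq sequence of GRCm38.p6, 5′ to 3′ on the plus strand, and capitals mark each match to the core of the metal response element, TGCACNC or TGCGCNC on either strand.
Mt2, chr8:94172368-94172617: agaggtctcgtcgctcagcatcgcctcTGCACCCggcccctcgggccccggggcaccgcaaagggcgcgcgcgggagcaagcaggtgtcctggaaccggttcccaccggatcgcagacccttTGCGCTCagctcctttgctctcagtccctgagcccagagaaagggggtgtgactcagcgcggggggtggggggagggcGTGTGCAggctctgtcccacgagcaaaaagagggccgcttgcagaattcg
Mt1, chr8:94178839-94179081: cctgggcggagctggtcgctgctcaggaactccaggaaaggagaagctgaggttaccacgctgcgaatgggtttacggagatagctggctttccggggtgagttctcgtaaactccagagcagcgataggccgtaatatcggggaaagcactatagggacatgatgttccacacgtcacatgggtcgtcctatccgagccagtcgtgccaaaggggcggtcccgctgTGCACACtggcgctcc
The Mt2 stretch holds 3 matches, one of them on the reverse strand, and the Mt1 stretch holds 1. Each stretch ends before the earliest annotated start of its gene, so these counts do not compare the whole promoters. Matches beyond the stretches lay at chr8:94179091-94179097 and chr8:94179109-94179115 for Mt1, and at chr8:94172622-94172628 for Mt2. In windows of 300 bases from 250 before to 50 after the RefSeq start, Mt2 held 4 matches and Mt1 held 3. Of 32534 such windows of 26735 genes, 25.9% held at least 1 match, 1.99% at least 3 and 0.523% at least 4. The core of the antioxidant response element, TGACNNNGC, occurred 1 time in the Mt2 window and 0 times in the Mt1 window, against 12.4% of all windows with at least 1. Sequence farther than 50 bases after the RefSeq start was not searched, so the 0 covers that window only. The coding sequences of Mt1 and Mt2, 183 bases each, were 79.2% identical, but the first 91 bases of the transcripts, the length of a read, were 48.5% identical and no identical run was longer than 20 bases.

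The libraries held 1262 CD137-minus and 2766 CD137-plus tumour cells, and 2464 CD137-minus and 473 CD137-plus spleen cells. The values are whole numbers on a natural log scale that look corrected for depth within each library, here called corrected counts. Their median sum per cell was 4833.5 in CD137-minus and 3701.5 in CD137-plus tumour cells, and 3973 in CD137-minus and 5344 in CD137-plus spleen cells. A level is given as CPM, corrected counts per 1e+06 of the group's total. A library shows 0 for nearly every gene seen in under 5 of its cells, so a 0 sets no upper limit. Between 99.1% and 99.3% of cells in every library had a Cd8a or Cd8b1 value. Of the melanoma markers Pmel, Mlana, Dct, Tyrp1 and Tyr, 2 or more had a value in 9 CD137-minus and 38 CD137-plus tumour cells and in 0 spleen cells. Over all pairs of libraries 19 cell barcodes were shared, 1 of them between the tumour libraries.

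Mt1 and Mt2 were seen almost only in the tumour libraries. Mt1 stood at 84.6 CPM in CD137-minus tumour cells and 106 CPM in CD137-plus tumour cells, against 0.814 CPM in CD137-minus spleen cells, and it was listed at 0 in CD137-plus spleen cells. A value of Mt1 was held by 176 of 1262 CD137-minus tumour cells, 13.9% (exact 95% interval 12.1% to 16.0%), and by 518 of 2766 CD137-plus tumour cells, 18.7% (17.3% to 20.2%). In the CD137-minus spleen 6 of 2464 cells had one, 0.244% (0.0894% to 0.529%). The tumour and spleen intervals do not come near each other, and they cover counting error only. The log2 ratio of the CD137-minus tumour over the CD137-minus spleen library was 5.56, with a pseudocount of 1 CPM. A ratio of at least 0.5 was reached by 22% of the 5412 measured genes, meaning genes that reached 20 CPM and 5% of cells in 1 group and had some value in both, and 0.129% of measured genes lay above Mt1. Pdcd1 was among those few, at 363 CPM in the CD137-minus tumour and 5.09 CPM in its spleen counterpart. The rank of Mt1 is a description only, because the levels that gave it also chose the gene. Mt1 passed the filter through the tumour library alone. Genes listed at 0 in the spleen library, such as Hspa1a, were not ranked.

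Mt2 followed the same order of libraries at few corrected counts. It had 8.45 CPM in CD137-minus and 13.04 CPM in CD137-plus tumour cells, and was listed at 0 in both spleen libraries. It had a value in 36 CD137-minus tumour cells, 2.85% (2.01% to 3.93%), and in 107 CD137-plus tumour cells, 3.87% (3.18% to 4.66%). No fold is given against a library listed at 0. Between the spleen libraries, CD137-minus over CD137-plus, 1.41% of 5183 measured genes were called higher and 10.3% lower, and neither metallothionein passed the filter.

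**Figure D1:**
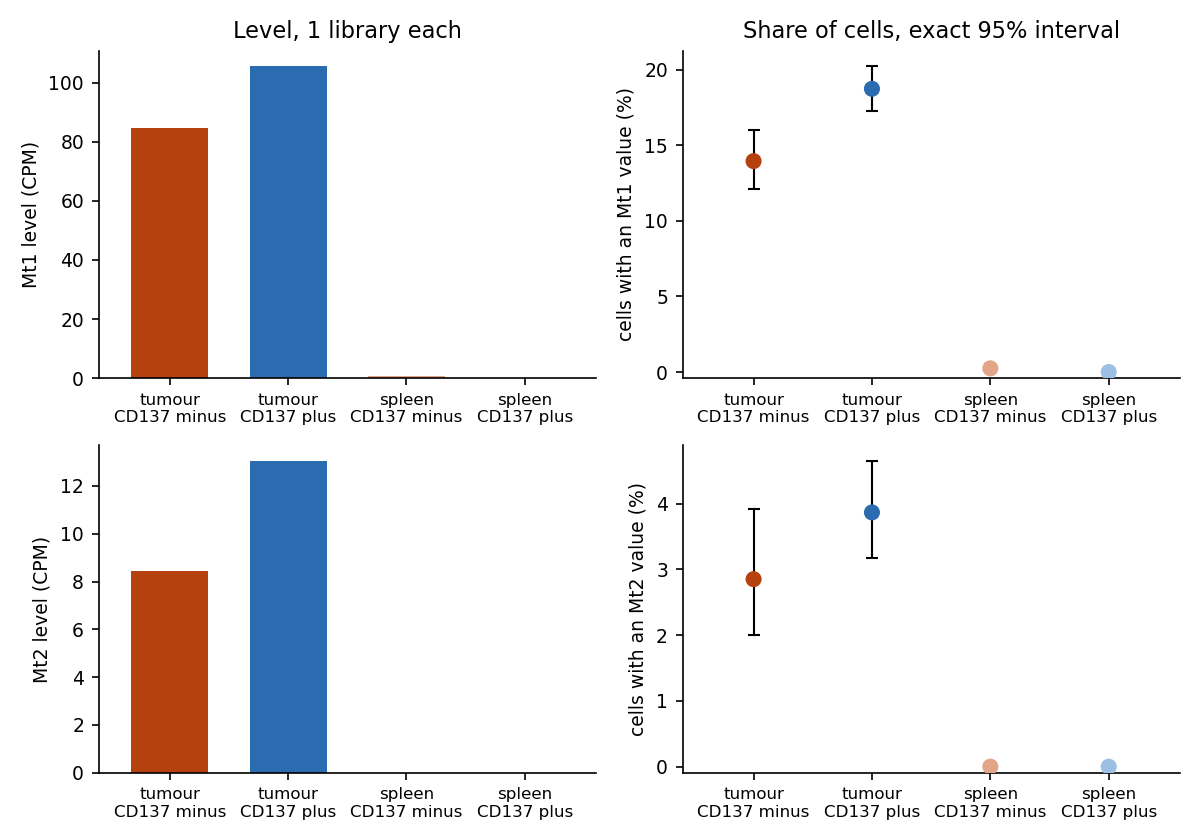
Level in CPM (left, 1 bar per library) and share of cells with a value in percent (right, with exact 95% intervals in the tumour libraries) for Mt1 (top) and Mt2 (bottom). Mt1 reaches 84.6 and 106 CPM in the tumour libraries, and the spleen bars are at or near 0.

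CD137-minus tumour cells had somewhat lower metallothionein levels than CD137-plus tumour cells. The log2 ratio, minus over plus, was -0.31 for Mt1, within the limit of 0.5 used here to call a size, where 1.7% of 5353 measured genes were called higher and 5.44% lower. The median of all measured genes was itself -0.13. In cells with none of the melanoma markers, Mt1 had 72.8 CPM in CD137-minus cells, against 84.6 CPM over all of them. The CD137-plus level changed little. Without cells that held such markers the libraries thus lay farther apart, and the ratio within the limit is that of all cells. Mt2 had a log2 ratio of -0.57, but at under 20 CPM in both libraries it was not among the measured genes. Pdcd1, at 363 CPM against 518 CPM, and Havcr2, at 32.0 CPM against 48.0 CPM, were lower in CD137-minus cells too, with log2 ratios of -0.51 and -0.57. Among cells with a Pdcd1 value, a split added after the first values were seen, Mt1 had 139.5 CPM in CD137-minus and 137 CPM in CD137-plus cells, a log2 ratio of 0.025. Among cells without one it had 46.6 CPM in CD137-minus and 65.7 CPM in CD137-plus cells, a log2 ratio of -0.49. In these data the Mt1 levels of the tumour libraries were thus nearly equal in cells with Pdcd1. In cells without it the CD137-minus level was lower, by a ratio still within the limit of 0.5 when all such cells were kept. The 9 CD137-minus cells with 2 or more melanoma markers had 1444 CPM of Mt1. With them left out, the CD137-minus level in cells without Pdcd1 fell, as given below. The call within the limit thus rests on keeping them.

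Within the tumour, Mt1 was concentrated in few cells. Most tumour cells had no value, 72 CD137-minus and 290 CD137-plus cells had exactly 1 corrected count, and 23 and 27 cells had more than 5. The highest cell had 21 in the CD137-minus and 26 in the CD137-plus library. The top 1% of cells held 29.7% of the Mt1 corrected counts in the CD137-minus library and 24.1% in the CD137-plus library. The share of cells with 2 or more was 8.24% in both libraries, 104 and 228 cells. Mt2 reached at most 4 in CD137-minus and 7 in CD137-plus cells. When 2900 corrected counts were drawn at random from each cell, Mt1 had a value in 10.9% of CD137-minus and 16.4% of CD137-plus tumour cells, and Mt2 in 1.74% and 2.96%.

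Cells with Mt1 held Mt2 far more often than cells without it. In CD137-minus tumour cells, 27 cells had both, 149 had Mt1 only, 9 had Mt2 only and 1077 had neither. In CD137-plus tumour cells the numbers were 74, 444, 33 and 2215. An Mt2 value was held by 15.3% (10.4% to 21.5%) of CD137-minus cells with Mt1 and 0.829% (0.380% to 1.57%) of those without. In CD137-plus cells it was held by 14.3% (11.4% to 17.6%) of cells with Mt1 and 1.47% (1.01% to 2.06%) of those without. The share grew with the Mt1 value. At 1, 2, and 3 or more corrected counts of Mt1, Mt2 was seen in 5.56%, 9.43% and 35.3% of CD137-minus cells, and in 8.97%, 10.8% and 32.4% of CD137-plus cells. Over single cells Pearson's r between the genes was 0.40 in the 1262 CD137-minus cells and 0.32 in the 2766 CD137-plus cells. The cells share a library and its depth, so r is a description only. Cells with both genes also had more genes with a value, a median of 2072 in the CD137-minus and 1820 in the CD137-plus library, against 1394 and 1257 in cells with neither.

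**Figure D2:**
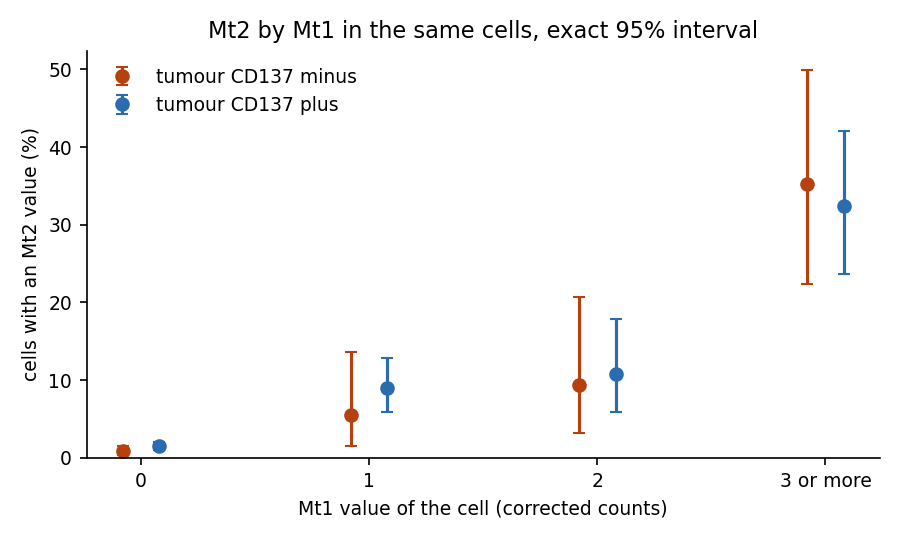
Share of tumour cells with an Mt2 value (percent, with exact 95% intervals) by the cell's Mt1 value in corrected counts, for the CD137-minus and CD137-plus libraries. The share is 35.3% and 32.4% in cells with 3 or more Mt1 corrected counts and under 2% in cells with none.

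Cells with a value of Pdcd1, which encodes the inhibitory receptor PD-1, had more Mt1 and Mt2 in both tumour libraries. In CD137-minus cells, Mt1 had 139.5 CPM in the 514 cells with a Pdcd1 value against 46.6 CPM in the 748 without, with an Mt1 value in 22.6% (19.0% to 26.4%) and 8.02% (6.18% to 10.2%). In CD137-plus cells, it had 137 CPM in the 1527 with a Pdcd1 value and 65.7 CPM in the 1239 without, with a value in 23.8% (21.7% to 26.1%) and 12.4% (10.6% to 14.4%). The intervals did not overlap in either library, and the log2 ratios, with over without, were 1.56 and 1.05. As background, 44.5% of measured genes were called higher and 4.4% lower in this split of CD137-minus cells, and 31.7% and 4.21% in CD137-plus cells, with medians of 0.44 and 0.34. Of measured genes, 4.37% and 5.78% had a larger ratio than Mt1, a description only, because this split helped to choose it. Mt2 had 14.6 CPM with and 4.21 CPM without Pdcd1 in CD137-minus cells, from 36 and 15 corrected counts, and 19.2 CPM and 5.27 CPM in CD137-plus cells, from 110 and 24.

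Among cells with Pdcd1, those just above 0 held less Mt1 than those with more of it. In CD137-minus cells with Pdcd1 at 1, 2, and 3 or more corrected counts, Mt1 had 93.6, 112 and 164 CPM. In CD137-plus cells it had 124, 133 and 144 CPM. The order was the same in both libraries, and in CD137-plus cells the widest step lay between no Pdcd1 and 1 corrected count of it.

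Cells with a Tnfrsf9 value, a mark of recent activation, gave a similar picture. Mt1 had 164 CPM with and 68.9 CPM without it in CD137-minus cells, and 145 CPM with and 71.8 CPM without it in CD137-plus cells, with log2 ratios of 1.24 and 1.00. Of all measured genes, 45% were called higher and 5.35% lower in the CD137-minus split, and 26.5% and 4.82% in the CD137-plus split. An Mt1 value was held by 27.0% (21.0% to 33.7%) of CD137-minus cells with Tnfrsf9 and 11.5% (9.63% to 13.6%) of those without, and by 24.8% and 13.7% of CD137-plus cells. The CD137-minus ratio turned in cells of intermediate gene number. Among cells between the first and the third quartile of gene number, Mt1 had 51.1 CPM in the 64 cells with Tnfrsf9 and 62.5 CPM in the 567 without, a log2 ratio of -0.29. In the CD137-plus library the same restriction gave 130.4 CPM in 510 cells and 56.2 CPM in 873, a log2 ratio of 1.20. Mt2 had 12.0 CPM with and 7.74 CPM without Tnfrsf9 in CD137-minus cells, and 19.98 CPM and 7.07 CPM in CD137-plus cells.

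Havcr2, which encodes TIM-3, gave smaller ratios for Mt1. Mt1 had 131 CPM in the 117 cells with it and 79.8 CPM in the 1145 without among CD137-minus cells, and 158 CPM in 356 and 97.4 CPM in 2410 among CD137-plus cells. The log2 ratios were 0.71 and 0.69, where 40% of measured genes were called higher and 5.27% lower in CD137-minus cells, and 22.3% and 3.49% in CD137-plus cells. The medians of all measured genes were 0.39 and 0.25. The intervals of the shares overlapped in CD137-minus cells, 19.7% (12.9% to 28.0%) with and 13.4% (11.4% to 15.5%) without, and did not in CD137-plus cells, 28.9% (24.3% to 33.9%) with and 17.2% (15.7% to 18.8%) without. Mt2 had 17.5 CPM with and 7.50 CPM without Havcr2 in CD137-minus cells, a log2 ratio of 1.12 from 10 and 41 corrected counts. In CD137-plus cells it had 20.4 CPM with and 11.9 CPM without, a log2 ratio of 0.73.

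**Figure D3:**
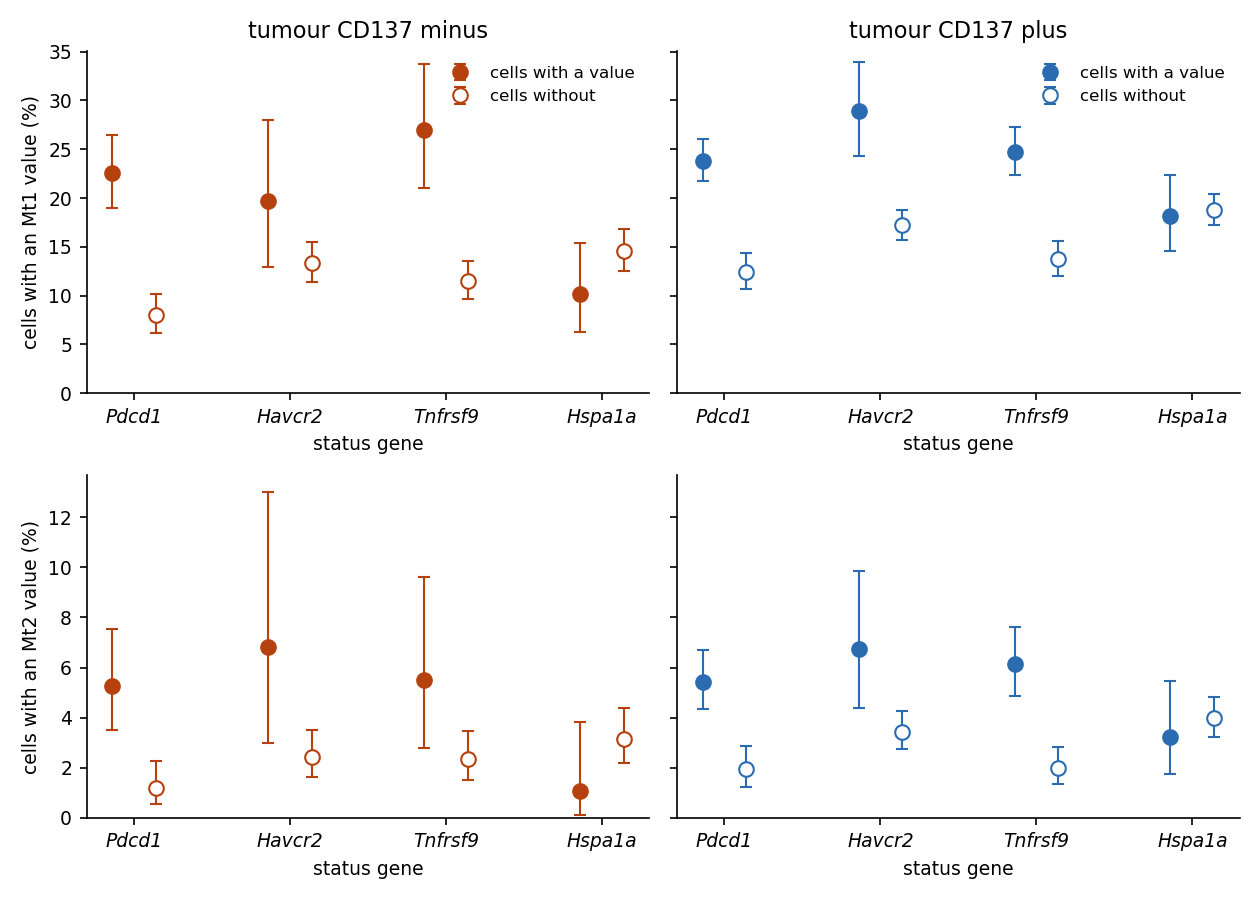
Share of tumour cells with an Mt1 (top) or Mt2 (bottom) value in percent, for cells with (filled) and without (open) a value of each status gene, in the CD137-minus (left) and CD137-plus (right) libraries, with exact 95% intervals. For Mt1 the widest gap among CD137-minus cells is 27.0% against 11.5% by Tnfrsf9, and the shares by Hspa1a overlap.

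Read jointly, Mt1 differed little by Havcr2 among cells with Pdcd1. Among cells without Pdcd1 it was higher with Havcr2, in few cells. In CD137-minus cells Mt1 had 137 CPM in the 96 cells with both, 140.2 CPM in the 418 with Pdcd1 only, 104 CPM in the 21 with Havcr2 only and 44.97 CPM in the 727 with neither. In CD137-plus cells the levels were 158, 132, 156 and 60.3 CPM in 287, 1240, 69 and 1170 cells. For Pdcd1 and Tnfrsf9, Mt1 had 172 CPM in CD137-minus cells with both, 122 CPM with Pdcd1 only, 107 CPM with Tnfrsf9 only and 44.3 CPM with neither. In CD137-plus cells it had 154, 106, 111 and 52.6 CPM. In both libraries each of Pdcd1 and Tnfrsf9 went with a higher Mt1 level in cells that lacked the other. The level with Tnfrsf9 only rests on 28 cells and 14 Mt1 corrected counts among CD137-minus cells, and gene number was not held fixed.

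Counting how many of Pdcd1, Havcr2 and Tnfrsf9 had a value ordered the cells by both metallothioneins. From 0 to 3 of them, Mt1 had 42.6, 121, 163 and 149 CPM in CD137-minus cells and 51.5, 98.3, 155 and 160.0 CPM in CD137-plus cells. Mt2 had 4.47, 11.5, 15.9 and 16.5 CPM in CD137-minus cells and 2.63, 14.4, 19.7 and 24.9 CPM in CD137-plus cells. The last step, from 2 to 3, was small or turned downward for Mt1, and in CD137-minus cells it rests on 48 cells.

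**Figure D4:**
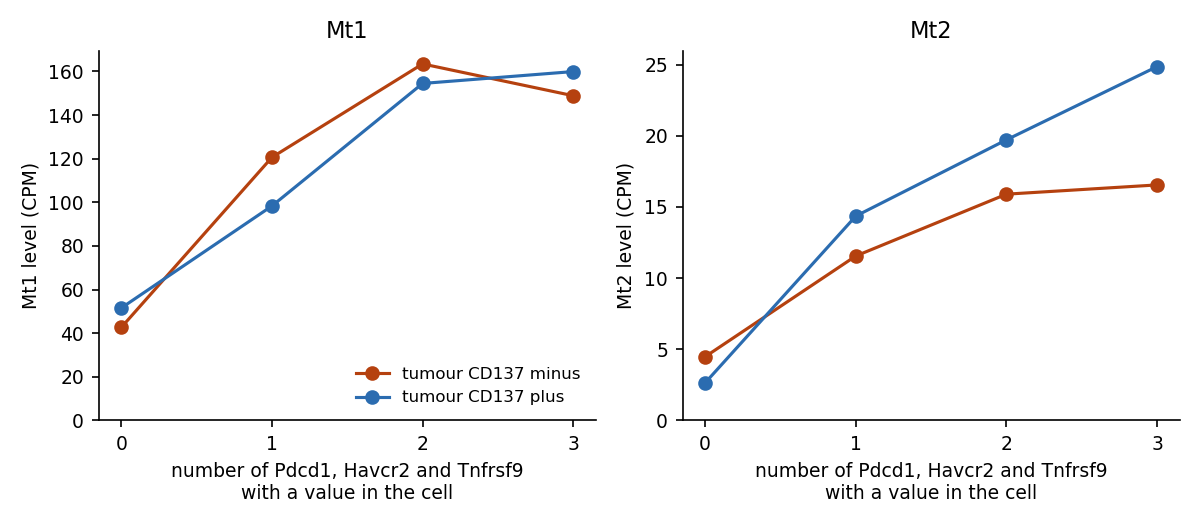
Level in CPM of Mt1 (left) and Mt2 (right) in tumour cells by how many of Pdcd1, Havcr2 and Tnfrsf9 had a value, for the CD137-minus and CD137-plus libraries, 1 point per group of cells. Mt1 goes from 42.6 and 51.5 CPM at 0 to 149 and 160.0 CPM at 3.

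Hspa1a, an inducible heat shock protein 70 gene, gave ratios below or near 0. Among CD137-minus cells, Mt1 had 56.0 CPM in the 187 cells with an Hspa1a value and 89.7 CPM in the 1075 without, a log2 ratio of -0.67, where 19.3% of measured genes were called lower and 4.84% higher. Among CD137-plus cells it had 99.7 CPM in 401 and 107 CPM in 2365, a log2 ratio of -0.09, where 7.98% were called lower and 3.47% higher. The intervals of the shares overlapped in both libraries, 10.2% (6.23% to 15.4%) and 14.6% (12.5% to 16.9%) in CD137-minus cells and 18.2% (14.5% to 22.3%) and 18.8% (17.3% to 20.4%) in CD137-plus cells. Mt2 had 2 corrected counts in CD137-minus cells with Hspa1a and 49 in those without. In CD137-plus cells it had 9.36 CPM with and 13.7 CPM without. Hspa1a cells held less Pdcd1, 150.5 CPM against 401 CPM in CD137-minus cells and 318 CPM against 552 CPM in CD137-plus cells. In cells with Pdcd1, Mt1 had 153 CPM with and 138 CPM without Hspa1a in CD137-minus cells, and 167 CPM and 134 CPM in CD137-plus cells. In cells without Pdcd1, it had 27.1 CPM with and 51.3 CPM without Hspa1a in CD137-minus cells, and 55.3 CPM and 68.3 CPM in CD137-plus cells. The CD137-minus values with Hspa1a rest on 32 Mt1 corrected counts in 43 cells with Pdcd1, and on 19 in 144 cells without it. The intervals of the CD137-minus shares by Hspa1a overlapped with and without Pdcd1, and the change of direction was not tested.

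The number of genes and melanoma markers moved with these splits. Cells with a Pdcd1 value had a median of 1729.5 genes in CD137-minus and 1499 in CD137-plus cells, against 1334.5 and 1187 in those without. Over 4 bins of nearly equal size from the fewest to the most genes, Mt1 had a value in 8.86%, 6.98%, 14.2% and 25.7% of CD137-minus cells and in 11.03%, 15.04%, 18.8% and 30.1% of CD137-plus cells. Between the first and the third quartile of gene number, the log2 ratio of Mt1 by Pdcd1 was 1.64 in CD137-minus and 1.18 in CD137-plus cells, as large as over all cells. The 9 CD137-minus cells with 2 or more melanoma markers held 53 of the 511 Mt1 corrected counts of their library, at 1444 CPM, against 72.8 CPM in cells with none. The 38 such CD137-plus cells had 212 CPM, against 104.5 CPM in cells with none. The summed level of 7 melanoma markers, of which Tyr was at 0 in both tumour libraries and Tyrp1 in the CD137-minus one, was 260.3 CPM in CD137-minus cells with Mt1 and 18.4 CPM in those without, and 103 CPM and 35.1 CPM in CD137-plus cells. By Pdcd1 these markers ran the other way in CD137-minus cells, at 12.5 CPM with and 81.1 CPM without it, and were level in CD137-plus cells, at 49.1 CPM and 47.0 CPM. With cells of 2 or more melanoma markers left out, Mt1 in CD137-minus cells had 139.8 CPM with and 32.0 CPM without Pdcd1, a log2 ratio of 2.09. The 2 erythroid markers summed to 277 CPM in CD137-plus cells with Mt1 and 9.77 CPM in those without, and were listed at 0 in the CD137-minus library. By Pdcd1 they stood at 103 CPM and 9.01 CPM in CD137-plus cells. The 7 macrophage markers, with Csf1r and Adgre1 at 0, summed to 62.5 CPM with and 21.5 CPM without Mt1 in CD137-minus cells, and to 49.5 CPM and 36.3 CPM in CD137-plus cells. Both neutrophil markers were listed at 0 in all 4 libraries. The part of the macrophage and erythroid markers and of gene number in the Mt1 values was not tested.

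The Mt1 level was then read in cells with and without each of a panel of 34 further genes. For 16 of them Mt1 was at least 0.5 higher on the log2 scale in cells with the gene in both tumour libraries, and for 8 it was at least 0.5 lower. Over all 8574 genes with a value in at least 25 cells of each library, 8.98% gave Mt1 that much higher in both and 3.81% that much lower. Tigit, an inhibitory receptor, gave Mt1 152 CPM with and 44.6 CPM without in CD137-minus cells, and 147 CPM and 60.2 CPM in CD137-plus cells. Lag3, another, gave 151 CPM and 48.1 CPM, and 158 CPM and 59.3 CPM. Gzmb, the cytotoxic granule protease granzyme B, gave 207 CPM and 62.7 CPM in CD137-minus cells, and 159 CPM and 87.4 CPM in CD137-plus cells. Lef1, a transcription factor of naive and memory T cells, gave 32.7 CPM with and 116 CPM without in CD137-minus cells, and 40.9 CPM and 126 CPM in CD137-plus cells, with log2 ratios of -1.80 and -1.60. The naive and memory genes Tcf7, Lef1, Ccr7, Il7r and Slamf6 were all among the 8 genes with lower Mt1. Activation and effector genes did not all go with higher Mt1. Klrg1, a receptor of short-lived effector cells, gave log2 ratios of -0.25 in CD137-minus and 0.04 in CD137-plus cells, and Xcl1, a chemokine gene, gave 0.49 and 0.18. Tox, a transcription factor of exhausted T cells, gave 0.82 and 0.33, and the costimulatory receptor gene Tnfrsf4 gave 0.86 and 0.45, so neither reached the limit in both libraries.

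**Figure D5:**
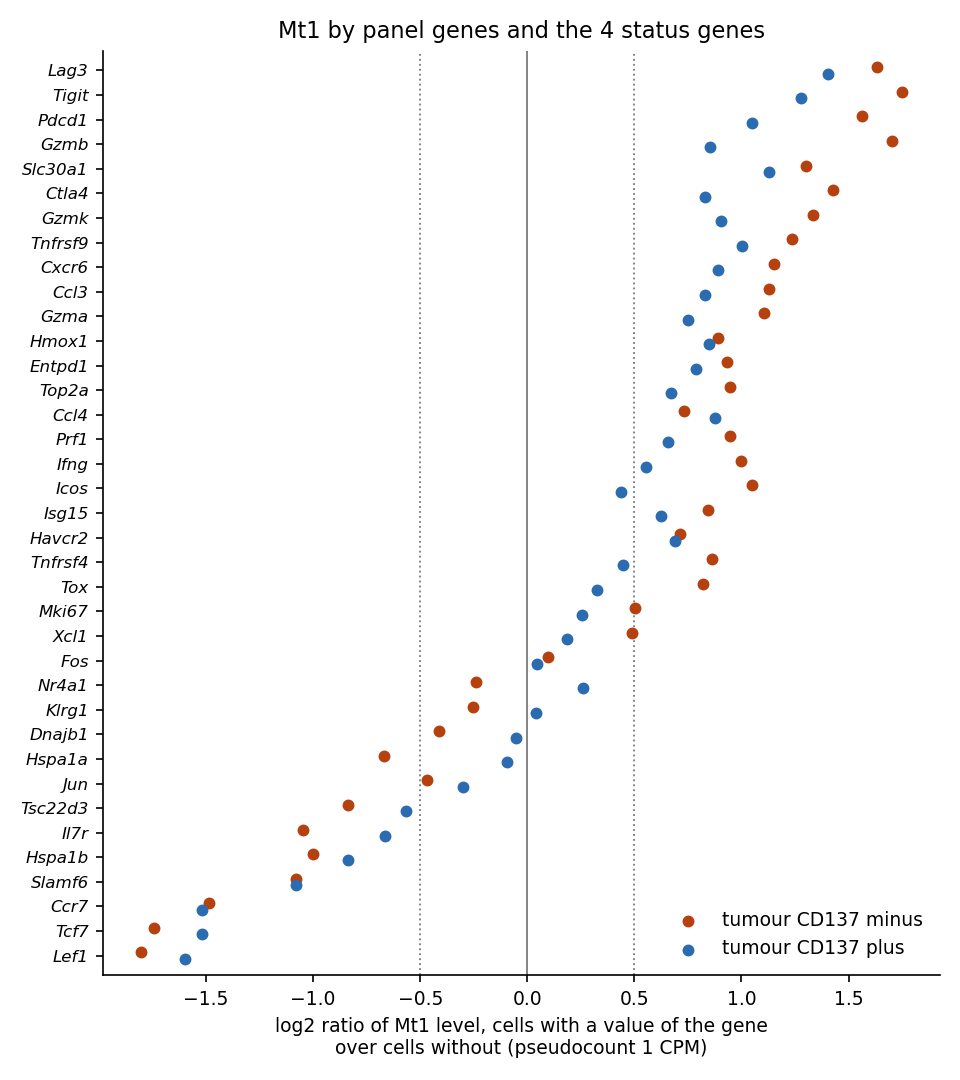
Log2 ratio of the Mt1 level in tumour cells with a value of each gene over cells without (x axis, pseudocount of 1 CPM), for the panel genes reported here and the 4 status genes, in the CD137-minus and CD137-plus libraries, with dotted lines at 0.5 either side of 0. Of the genes plotted, Lef1 is farthest to the left at -1.80 and -1.60.

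Mt2 was split by the same panel. It was at least 0.5 higher for 12 panel genes and lower for 7 in both libraries, against 19.6% and 4.92% of all 8574 genes. Slc30a1, the zinc exporter and a textbook MTF-1 target, was among the genes with higher Mt1 and higher Mt2. In CD137-minus cells Mt1 had 199 CPM in the 49 cells with Slc30a1 and 79.9 CPM in those without, and in CD137-plus cells 220.4 CPM in 114 and 100.3 CPM in the others. Mt2 had 16.6 CPM with and 8.11 CPM without it in CD137-minus cells, and 36.0 CPM and 12.0 CPM in CD137-plus cells. The Mt2 shares overlapped in CD137-minus cells, 6.12% (1.28% to 16.9%) with Slc30a1 and 2.72% (1.88% to 3.80%) without. In CD137-plus cells they did not, at 10.5% (5.56% to 17.7%) and 3.58% (2.91% to 4.36%). Cells with Slc30a1 also had more genes, a median of 1716 against 1421 in CD137-minus and 1722.5 against 1295 in CD137-plus cells. Hmox1, the heme oxygenase induced by oxidative stress, gave Mt1 155 CPM with and 83.1 CPM without in CD137-minus cells, and 188 CPM and 104.0 CPM in CD137-plus cells, from 25 and 49 cells with it. Tsc22d3, the glucocorticoid-induced leucine zipper, went with less Mt1, 62.0 CPM with and 112 CPM without in CD137-minus cells, and 81.7 CPM and 121 CPM in CD137-plus cells.

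Lists of genes tied to the known inducers were then compared between cells with and without an Mt1 value. A filter met by either group lets a gene in through the group where it is high, so list members were counted only if they reached 20 CPM and 5% of all cells of the library, a choice made after seeing the data. Of the 5554 CD137-minus and 5629 CD137-plus genes under the filter on either group, 23.7% and 8.08% were called higher and 4.18% and 2.29% lower. Under the filter on the whole library, 18.8% of 4987 genes were called higher and 4.37% lower in CD137-minus cells, with a median log2 ratio of 0.21, and 6.08% and 2.12% of 5232 in CD137-plus cells, with a median of 0.12. Of zinc sensing and transport genes, 1 of 4 was higher in CD137-minus cells and 0 of 5 in CD137-plus cells, and 0 were lower. The 1 was Slc30a7, a zinc transporter of the secretory pathway, at 35.9 CPM with and 24.4 CPM without Mt1. Mtf1, the zinc sensor, had 31.3 CPM with and 22.5 CPM without Mt1 in CD137-plus cells, a log2 ratio of 0.46. Of oxidative stress genes of the NRF2 type, 2 of 7 were higher in CD137-minus cells, namely Keap1 and Txn1, and 1 was higher and 1 lower of 9 in CD137-plus cells. The higher one was Osgin1, a growth inhibitor induced by oxidative stress, at 61.1 CPM with and 32.8 CPM without Mt1. Of genes induced by glucocorticoids, 1 of 9 was higher and 2 lower in CD137-minus cells, and 0 of 10 higher and 3 lower in CD137-plus cells, with medians of -0.19 and -0.04. The members lower in CD137-plus cells were Tsc22d3, Pik3ip1 and Il7r, the last also a memory gene of the panel. Of iron and copper handling genes, 1 of 5 was higher in CD137-minus cells and 0 of 6 in CD137-plus cells.

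Exhaustion and hypoxia-induced genes had the most members called higher of the 7 lists in both libraries. Of exhaustion and inhibitory receptor genes, 8 of 11 were higher in CD137-minus and 5 of 11 in CD137-plus cells with Mt1, with medians of 0.76 and 0.47 and 0 lower. The 8 include Pdcd1 and the 5 include Havcr2. Both are status genes whose splits chose Mt1, so they add nothing to these counts as support. Of hypoxia-induced genes, 6 of 11 were higher and 1 lower in CD137-minus cells (median 0.52), and 3 of 11 were higher and 0 lower in CD137-plus cells (median 0.34). Hilpda, a lipid droplet protein induced by hypoxia, had 228 CPM with and 102 CPM without Mt1 in CD137-minus cells, and 236 CPM and 143 CPM in CD137-plus cells. With only cells that had none of the 5 melanoma markers, also a choice made after seeing the data, the hypoxia counts were 5 of 11 and 3 of 11. The hypoxia medians then fell to 0.39 in CD137-minus and 0.28 in CD137-plus cells, where all genes had medians of 0.21 and 0.12. Of heat shock genes, 1 of 11 was higher and 3 lower in CD137-minus cells, and 0 of 11 in either direction in CD137-plus cells. The status gene Hspa1a was among the 3.

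By Mt2, the split rests on 36 CD137-minus and 107 CD137-plus cells with a value, and many genes passed the size limit. Under the filter on either group 39.1% of 5996 genes were called higher and 12.9% lower in CD137-minus cells, and 25.5% and 5.57% of 5956 in CD137-plus cells. Under the filter on the whole library the shares were 29.3% and 15.8% of 4988 in CD137-minus cells, and 18.8% and 6.29% of 5233 in CD137-plus cells. Of zinc genes, 0 of 4 passed the limit in CD137-minus cells and 2 of 5 were higher in CD137-plus cells, Mtf1 at 49.7 CPM with and 23.1 CPM without Mt2 and Slc30a7 at 42.6 CPM and 24.5 CPM. Of glucocorticoid-induced genes, 5 of 9 were lower in CD137-minus cells and 2 of 10 in CD137-plus cells, and 0 were higher. Il7r had 32.4 CPM with and 158 CPM without Mt2 in CD137-minus cells and 68.6 CPM and 115 CPM in CD137-plus cells. Hypoxia-induced genes were higher in 5 of 11 with 2 lower in CD137-minus cells and in 5 of 11 with 0 lower in CD137-plus cells. Oxidative stress genes were higher in 2 of 7 and 3 of 9, and exhaustion genes in 6 of 11 and 2 of 11. The 6 include the status gene Pdcd1, whose split helped to choose Mt2.

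By Pdcd1, 40.4% of 4987 genes were called higher and 4.45% lower in CD137-minus cells under the filter on the whole library, and 29.3% and 4.01% of 5232 in CD137-plus cells. Few zinc genes reached that filter, and 3 of 4 were higher in CD137-minus and 4 of 5 in CD137-plus cells. Mtf1, one of the 4, had 29.7 CPM with and 17.4 CPM without Pdcd1 in CD137-plus cells. Of glucocorticoid-induced genes 2 of 9 were higher and 4 lower in CD137-minus cells, and 2 higher and 5 lower of 10 in CD137-plus cells.

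Between the tumour and spleen libraries list members were counted if the mean of the 2 libraries reached 20 CPM and 5% of cells, again a choice made after seeing the data. Hypoxia-induced genes were higher in 8 of 10 in the CD137-minus tumour over its spleen (median 1.05) and in 8 of 10 in the CD137-plus tumour (median 1.23), with 1 lower in each, Pdk1. Of all genes under this filter, 20.1% of 4912 were called higher and 13.2% lower in the CD137-minus pair, and 22.9% and 15.7% of 5206 in the CD137-plus pair. Under the filter on either library, 14.5% were called lower in the CD137-minus pair, and 24.2% of 5710 higher and 17.5% lower in the CD137-plus pair. Zinc genes were higher in 2 of 4 and in 2 of 5, with 0 lower. The zinc importer Slc39a6 was one of them in both, at 31.6 CPM against 15.7 CPM in the CD137-minus pair and 36.5 CPM against 12.6 CPM in the CD137-plus pair.

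The genes most like Mt1 over tumour cells, ranked by the lower Pearson's r of the 2 libraries among 5707 genes, were Litaf, S100a4, Rgs16, Nr4a2, Glrx, S100a6, Lgals1, Nkg7, Lag3 and Rgs1. Their r ranged only between 0.16 and 0.24 over 1262 CD137-minus and 2766 CD137-plus cells, which in sparse counts is weak. Glrx encodes glutaredoxin, a small thiol-disulfide enzyme, and S100a4, S100a6 and Lgals1 are genes of activated and memory T cells. For Mt2, Mt1 came first with 0.40 and 0.32, and Cmtm7, Serpinb9, Smim3, Litaf, Nr4a2, Gapdh, S100a4, Chst12 and Ruvbl1 followed, with r between 0.09 and 0.18. Litaf, Nr4a2 and S100a4 were named for both members. Pdcd1 had an r with Mt1 of 0.18 in CD137-minus and 0.12 in CD137-plus cells.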

How the data were processed

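CD8 T cells of 4 libraries were profiled by 5′ droplet RNA sequencing, per the labels' protocols. The submitters' processing notes name Cell Ranger 3.0.2, Seurat 3.0 and the build mm10; no source used here gives the filters on cells and genes, the treatment of doublets or whether counting used strand. As read from the values, the deposited unit is a natural log, ln(1 + n) with n whole; totals per cell lie in a narrow range within each library (2949 to 4588 in the CD137-plus tumour one, for example), so these are taken as counts that the authors corrected for depth. They were turned back to whole numbers (relative tolerance 1e-12) and summed over cells, so no count model was applied. No doublet caller was run, since no uncorrected counts were used here. Levels are CPM. Log2 ratios used a pseudocount of 1 CPM and a size limit of 0.5, over genes with at least 20 CPM and 5% of cells in 1 group and a value in both. Thinning drew 2900 corrected counts per cell. Shares have exact Clopper-Pearson 95% intervals, which cover counting error only. Genes named were Mt1, Mt2, the status genes, members of the fixed lists and panel, and the 10 most alike genes; the members and lists were chosen with earlier results of these data known. The counts over the panel include 1 gene that is not reported here. The functions were tested on simulated data. Annotation was GENCODE M21, and upstream sequences were RefSeq's. Scripts used pandas 2.3.3, scipy 1.17.1, numpy 2.4.6 and matplotlib 3.10.9 under Python 3.11.15. Counts of list genes used a filter over the whole library, or over the mean of both libraries compared, chosen after seeing the data. Alternatives covered the pseudocount, the weight of cells, other cell types, scaling, thinning, gene number, cycling cells and the cut of each status gene.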

Additional observations from a re-analysis of the deposited data

Results flagged for a closer look

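Mt3, the neighbouring metallothionein gene known mainly from brain, was outside the comparisons and had a signal in the tumour. It had 4.14 CPM in the CD137-minus tumour library, from 25 corrected counts in 23 cells, and 5.26 CPM in the CD137-plus tumour library, from 54 corrected counts in 51 cells, and was listed at 0 in both spleen libraries. A value of Mt3 was held by 3.70% (2.24% to 5.71%) of CD137-minus cells with Pdcd1 and 0.535% (0.146% to 1.36%) of those without, and by 2.75% (1.99% to 3.70%) and 0.726% (0.333% to 1.37%) of CD137-plus cells. It was held by 4.55% of CD137-minus cells with Mt1 and 1.38% of those without, and by 4.05% and 1.33% of CD137-plus cells. In cells with none of the 5 melanoma markers Mt3 had 3.90 CPM in the CD137-minus and 5.07 CPM in the CD137-plus library.

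In 6 panel splits the 2 tumour libraries lay on opposite sides of 0, 2 of them for Mt1 and 4 for Mt2, and the differences were not tested. The log2 ratio of Mt2 by Ifng, the interferon gamma gene, was 1.39 in CD137-minus and -0.04 in CD137-plus cells. For Mt1 it was -0.24 and 0.26 by Nr4a1, an early gene of receptor signalling, and -0.25 and 0.04 by Klrg1, a receptor of short-lived effector cells. The Klrg1 values rest on 35 CD137-minus and 81 CD137-plus cells with it. The other 3 were splits of Mt2 with under 5 corrected counts on a side. Its log2 ratio was -0.34 in CD137-minus and 0.15 in CD137-plus cells by Mki67, and -0.31 and 0.37 by Top2a, both genes of dividing cells. By Klrg1 it was listed at 0 in the 35 CD137-minus cells with a value, so no ratio is given there, and the ratio was 0.85 in CD137-plus cells.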

How the results depend on the processing

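No paired analysis was possible because each group is 1 library, and for the same reason no replicate could be left out. Of 190 alternative values of the ratios and shares, 173 stayed within the counting interval of the value reported. Mt1 between the CD137-minus and CD137-plus tumour libraries had a log2 ratio of 0.025 among cells with Pdcd1, and Mt1 between CD137-minus tumour and spleen was 3.13 with a pseudocount of 10 CPM, by construction. With a status gene counted at 2 or more, the ratios by Havcr2 were 0.10 for Mt1 in CD137-plus cells, -1.11 for Mt2 in CD137-plus cells, from 2 corrected counts in 96 cells, and -3.28 for Mt2 in CD137-minus cells, from 0 in 46 cells, so the last is no measure of size. In the same setting Mt1 was 0.51 by Tnfrsf9 in CD137-minus cells and -0.62 by Hspa1a in CD137-plus cells. Mt1 by Tnfrsf9 in CD137-minus cells was -0.29 between the first and the third quartile of gene number, and Mt1 by Hspa1a in CD137-plus cells was -0.54 in cells with neither Pdcd1 nor Havcr2. The cause of these shifts was not tested, apart from the small groups named. Of 120 alternatives to the 12 status ratios of at least 0.5, 117 stayed above 0 and 106 at or above 0.5. The share of cells with Mt1 was 10.9% in CD137-minus and 16.4% in CD137-plus cells after thinning and 8.24% in each at a value of 2 or more; the share with Mt2 was 1.74% and 2.96% after thinning, and 0.951% and 0.615% at 2 or more. Depth limits Mt2 most: its CD137-minus values rest on 51 corrected counts. Counting zinc genes by Mt2 under the filter on either group gave 4 of 8 higher in CD137-minus and 6 of 9 in CD137-plus cells, against 0 of 4 and 2 of 5 under the filter on the whole library; a gene can enter the first through the group where it is high.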
